A study of Homo sapiens with 4 samples.

Results

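The genes of the MCM helicase and of origin licensing were followed in RNA-seq libraries of HT-29 and NCM460 cells treated with sturgeon chondroitin sulfate (SCS). The group holds 10 genes chosen by symbol, MCM2, MCM3, MCM4, MCM5, MCM6, MCM7, MCM10, CDC6, CDT1 and CDC45, and all 10 were found, each as a locus of its own, among the 18650 loci that had a value above 0. HT-29 is a human colorectal cancer line, and NCM460 is the line the study used as normal colonic epithelium. Each line was sequenced as an untreated control and after 24 h with 100 μg/mL SCS, a glycosaminoglycan prepared from a hybrid sturgeon. Each of the 4 conditions is represented by 1 library. Both lines were kept in the same serum supplement of 10% by the labels, whereas the study's methods give NCM460 a richer serum, and each line stands for a single cell source. The question put to these genes was whether SCS changed them in each line, and whether the subunits of the helicase changed together. With 1 library per condition, no difference between control and SCS within a line could be tested against replicates, and the intervals given cover counting error only.

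Every chromosome must be copied once per cell cycle, and origin licensing is the step that prepares it. In late mitosis and G1 phase the origin recognition complex, CDC6 and CDT1 load rings of MCM2 to MCM7 onto DNA, and each ring holds a single copy of each of the 6 subunits. In S phase CDC45 and the GINS complex join the ring to form the active helicase, and MCM10 helps it to start unwinding. Most of these genes are transcribed under E2F factors late in G1 phase, so their RNA is high in dividing cells and low in resting cells, and in the colon MCM proteins mark the dividing cells of the crypt base. CDC6 and CDT1 are also controlled strongly at the level of the protein, which RNA-seq does not measure.

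The libraries held between 1156568 and 1654764 fragments, of which mitochondrial transcripts took 35.8% in untreated and 13.8% in treated HT-29 cells, and 62.3% in untreated and 46.3% in treated NCM460 cells. The remaining nuclear fragments numbered 507692 to 1383424, so the depth was modest and smallest in NCM460. Levels are given as CPM, the fragments of a gene per 1e+06 fragments of the library, after TMM scaling, a scaling that brings the bulk of the genes of the 4 libraries to the same level. Epithelial EPCAM, CDH1, KRT8, KRT18 and KRT19 were present in all 4 libraries. Of 14 colon epithelium markers, 9 were above 3 fragments in both HT-29 libraries and 7 in both NCM460 libraries. KRT20, VIL1 and LGALS4 were listed at 0 in NCM460, CDX2 was listed at 0 in HT-29, and CDX1, GPA33 and TFF3 were listed at 0 in all 4 libraries. The 10 mesenchymal markers summed to 5.38 and 6.66 CPM in HT-29 and to 121 and 135 CPM in NCM460, where SPARC led with 65 and 102 fragments. Of the immune markers, PTPRC, CD3E and CD14 were at 0 in every library, the locus that holds CD68 also holds EIF4A1, and LYZ had 603 and 352 fragments in HT-29 and 0 in NCM460. The 4 endothelial markers summed to 7 fragments or fewer in each library. The part of these marker levels in the values below was not tested.

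The promoters of the genes that could be read are shown first, because most of the group moved together in HT-29 and some did not. RefSeq promoter windows on GRCh38.p14, 250 bases before to 50 after each start, were given for 8 of the 10 genes, while MCM4 and MCM5 had no entry. The windows were searched on both strands for letters close to an E2F site. These were TTCCCGC as well as the letters TTGGCGC and, as further forms of the site, TTCGCGC or else TTGCCGC. A match was found in 7 of the 12 windows of these genes, beside 13% of 35116 promoters in the table, and 6 of the 8 genes had it in at least 1 window. Counting only bases before the start, 5 of the 12 windows had a match, beside 10.9% of promoters. The 4 stretches below end at or before an annotated start and carry the matches in capitals. Overlapping matches on opposite strands run together in MCM6.
MCM6, chr2:135876444-135876643, minus strand: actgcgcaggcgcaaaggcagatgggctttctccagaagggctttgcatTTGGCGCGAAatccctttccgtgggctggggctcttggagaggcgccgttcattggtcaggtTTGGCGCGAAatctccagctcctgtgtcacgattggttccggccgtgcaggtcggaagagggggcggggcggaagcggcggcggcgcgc
MCM3, chr6:52284743-52284942, minus strand: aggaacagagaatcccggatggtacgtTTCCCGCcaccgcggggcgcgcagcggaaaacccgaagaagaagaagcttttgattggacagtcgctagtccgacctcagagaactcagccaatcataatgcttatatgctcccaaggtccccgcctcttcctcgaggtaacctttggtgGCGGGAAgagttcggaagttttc
MCM7, chr7:100101398-100101597, minus strand: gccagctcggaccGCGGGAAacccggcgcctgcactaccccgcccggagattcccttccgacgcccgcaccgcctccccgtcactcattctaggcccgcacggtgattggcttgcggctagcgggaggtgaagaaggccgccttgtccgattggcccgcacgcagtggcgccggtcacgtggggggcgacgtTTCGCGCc
CDT1, chr16:88803689-88803788, plus strand: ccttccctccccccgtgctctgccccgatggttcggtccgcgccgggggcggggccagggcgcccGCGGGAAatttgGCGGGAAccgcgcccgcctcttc

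MCM6 held 2 such pairs, whose first bases lay 151 and 89 bases before the start. CDT1, which carried matching letters as well, belonged to the genes that HT-29 kept, so the letters did not separate the genes that fell from those that did not. The matches of MCM2 and CDC6 began after the start, at bases 4 and 7 of MCM2 and at base 9 of CDC6. MCM10 and CDC45, which both fell in HT-29, had no match in their windows. CCAAT was found in 9 of the 12 windows, beside 34.6% of promoters, and the GC box GGGCGG in 10, beside 45.0%. The CHR letters TTTGAA, part of an element of many mitotic promoters, were found in 0 of the 12 windows, beside 15.2% of promoters. A match is a description of the letters only.

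In HT-29, SCS was accompanied by a broad loss of the helicase genes. Of the 10 genes, 8 were lower by at least 1.5-fold with a counting interval that excluded no change, and none was higher; among all 12168 loci compared, 14.8% were lower by this rule and 16.8% higher. The median log2 fold change of the group was -2.65, beside 0.07 for all loci. All 8 also passed a 2-fold threshold, which 8.93% of the loci passed in that direction and 9.78% in the other. By the fold of the deposited FPKM values alone, 8 were lower, beside 30.6% of loci lower and 22.2% higher. The exceptions were CDC6 and CDT1, the factors that load the ring. In bulk RNA, fewer cells that express these genes and less of their RNA per cell cannot be told apart.

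MCM4 showed the largest fall of the group. This subunit (ENSG00000104738, chr8:47960185-47978160, plus strand, GRCh38) belongs to the MCM4, MCM6 and MCM7 core of the ring, and it counted 301 fragments in untreated HT-29 and 26 after SCS. Its level went from 147 to 10.8 CPM, a log2 fold change of -3.62 (95% counting interval -4.40 to -3.19). MCM3 (ENSG00000112118, chr6:52264009-52284881, minus strand), one of the regulatory subunits, had 177 fragments and then 21, 86.5 and 8.74 CPM. Its log2 fold change was -3.13 (-4.03 to -2.65), and its promoter letters are those shown above. MCM5 (ENSG00000100297, chr22:35400063-35425430, plus strand) pairs with MCM2 at the gate through which DNA enters the ring. MCM5 had 106 fragments and then 14, 51.8 and 5.83 CPM, with a log2 fold change of -2.90 (-4.07 to -2.34). MCM2 (ENSG00000073111, chr3:127598223-127622436, plus strand), the other side of that gate, had 213 fragments and then 32, 104 and 13.3 CPM, with a log2 fold change of -2.85 (-3.55 to -2.43). MCM2, MCM3, MCM4 and MCM5 thus fell between 7.22-fold and 12.3-fold, and their counting intervals overlapped.

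MCM6 and MCM7, the partners of MCM4 in the core of the ring, fell less than MCM4 did. MCM6 (ENSG00000076003, chr2:135839626-135876426, minus strand) counted 88 fragments in untreated HT-29 and 22 after SCS, 43.0 and 9.16 CPM, with a log2 fold change of -2.09 (-2.98 to -1.54). MCM7 (ENSG00000166508, chr7:100092728-100101940, minus strand) had 350 fragments and then 198, 171 and 82.4 CPM, and its log2 fold change of -1.04 (-1.31 to -0.80) was the smallest among the subunits. The interval of MCM7 did not reach that of any other subunit. The MCM7 locus also contains the microRNA genes MIR25, MIR93 and MIR106B on the same strand, for which the table gave no value of their own. It overlaps AP4M1, a gene on the other strand that had 19 and 22 fragments in HT-29; strand was not stated to be used in counting, so reads where these overlap are uncertain.

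The genes that act after loading fell with the ring. CDC45 (ENSG00000093009, chr22:19479459-19520612, plus strand), the partner that turns the loaded ring into a helicase, counted 69 fragments in untreated HT-29 and 8 after SCS, 33.7 and 3.33 CPM. Its log2 fold change was -2.93 (-4.61 to -2.28), -1.57 by the deposited FPKM values and -2.22 with all libraries thinned to the smallest nuclear total. MCM10 (ENSG00000065328, chr10:13161554-13211104, plus strand), which is not a ring subunit despite its name, had 44 fragments and then 7, 21.5 and 2.91 CPM. Its log2 fold change was -2.45 (-4.28 to -1.72), the widest interval of the group in HT-29, since few fragments were left.

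The loaders CDC6 and CDT1 stayed near their control levels in HT-29. CDC6 (ENSG00000094804, chr17:40287633-40304657, plus strand), an ATPase that works with the origin recognition complex, counted 61 fragments before and 66 after SCS, 29.8 and 27.5 CPM. Its log2 fold change was -0.11 (-0.64 to 0.41). CDT1 (ENSG00000167513, chr16:88803213-88809258, plus strand), which brings the ring to the origin, had 53 fragments and then 48, 25.9 and 20 CPM, with a log2 fold change of -0.36 (-0.97 to 0.22). Both intervals include no change, and their lower ends leave room for a fall of CDC6 or CDT1 that is smaller than 2-fold. Set against the 6 subunits in the same libraries, CDC6 was 4.27-fold higher with SCS than in the control (log2 2.09, 1.56 to 2.63) and CDT1 3.57-fold higher (log2 1.84, 1.25 to 2.43).

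**Figure D1:**
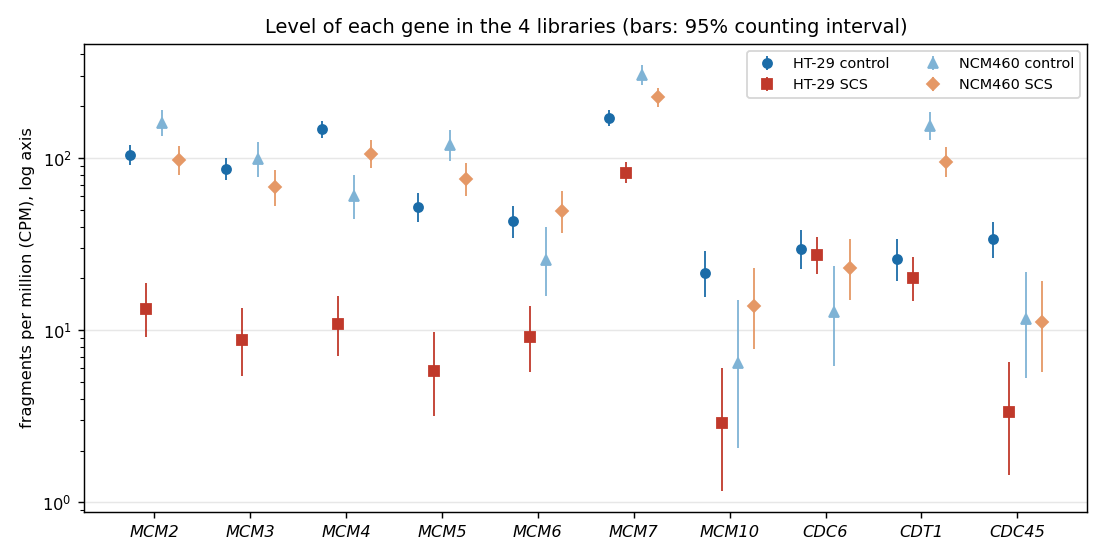
Level of each gene in the 4 libraries, in CPM on a log axis, with 95% counting intervals as bars and 1 point per library. The HT-29 library with SCS (red squares) is the lowest of the 4 for 9 genes, and for 6 of them its interval lies below the intervals of the other 3 libraries. The same count over all loci was not made.

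Levels were also read across the 4 libraries. HT-29 with SCS had the lowest level of 9 genes, and CDC6, lowest in the NCM460 control, was the exception. For 6 genes, MCM2 to MCM7, its interval lay below those of the other 3 libraries. How often loci outside the group had this order or separation was not counted. Neighbouring libraries in the order did not separate beyond counting error for CDC6 at any step, nor for MCM10. The 6 subunits together gave 604 CPM (570 to 638) in untreated HT-29 and 130 CPM (116 to 146) in treated HT-29. In NCM460 they gave 769 CPM (709 to 833) untreated and 621 CPM (575 to 670) treated. HT-29 with SCS was thus far below the others, whereas the HT-29 control and NCM460 with SCS overlapped.

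In NCM460 the group did not move as one. By the same rule 3 genes were lower and 2 higher, beside 13.8% of 12657 loci lower and 15.4% higher, and the median log2 fold change was -0.24, beside 0.03 for all loci. MCM2 counted 125 fragments untreated and 105 treated, 160 and 97.1 CPM, and its log2 fold change was -0.72 (-1.11 to -0.34). MCM5 went from 93 to 82 fragments, 119 to 75.8 CPM, a log2 value of -0.65 (-1.10 to -0.21). CDT1 went from 120 to 103 fragments, 154 to 95.2 CPM, a log2 value of -0.69 (-1.09 to -0.30). These gate subunits and the loader were the 3 called lower. MCM3, with 77 and 73 fragments and 98.9 and 67.5 CPM, was 1.46-fold lower and so lay just outside the threshold. MCM7 had 237 and 244 fragments, 304 and 226 CPM, and was 1.35-fold lower.

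The core subunits MCM4 and MCM6 went the other way in NCM460. MCM4 rose from 47 fragments to 115, 60.3 to 106 CPM, with a log2 fold change of 0.80 (0.32 to 1.34). MCM6 had 20 fragments and then 53, 25.7 and 49.0 CPM, with a log2 fold change of 0.90 (0.17 to 1.75). The 3 other genes had too few fragments to settle a direction. MCM10 had 5 and 15 fragments and CDC6 10 and 25, with intervals of -0.42 to 2.93 and -0.26 to 2.07, and CDC45 had 9 and 12, with an interval of -1.43 to 1.37.

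The direction in NCM460 went with the base composition of the transcripts. Over 12217 loci the log2 fold change and the GC content of the longest transcript had a Spearman rho of -0.63 in NCM460, and over the 10 genes rho was -0.93, a description across genes that share both libraries. MCM6 and MCM10, the genes lowest in GC (43.1% and 43.3%), were among those with positive values, and CDT1, the highest (64.9%), was among those called lower. In HT-29 rho was -0.13 over 11716 loci and 0.05 over the 10 genes. When the trend with GC was subtracted, MCM4 alone was still called in NCM460, at a log2 value of 0.71 (0.22 to 1.25), and no gene was called lower, beside 6.25% of loci lower and 5.72% higher. MCM6 then came to 0.14, MCM2 to -0.11, MCM5 to -0.08 and CDT1 to 0.05. By the fold of the deposited FPKM values alone, MCM4 gave -0.08 in NCM460, 6 genes were lower beside 41.4% of loci, and 1 was higher beside 25.2%. None of the 10 passed 2-fold in NCM460, beside 8.09% of loci lower and 13.5% higher. The same subtraction left 8 genes called lower in HT-29, beside 16.1% of loci lower and 14.5% higher, where MCM4 gave -3.60 and MCM7 -0.97. The part of base composition in the NCM460 values was not tested beyond this.

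**Figure D2:**
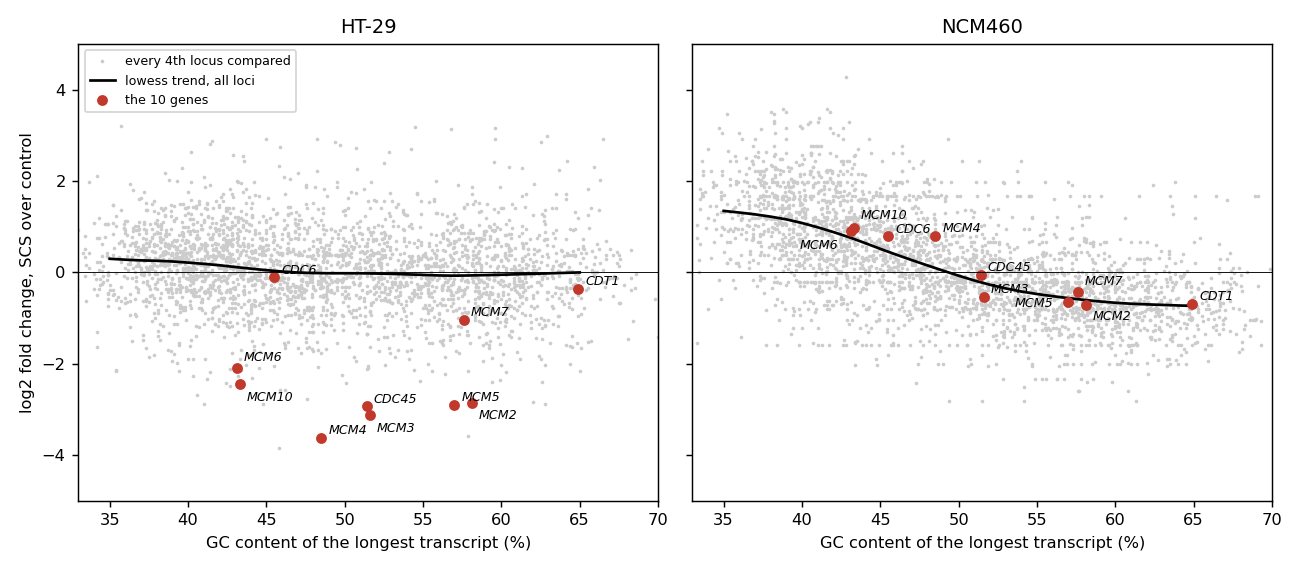
Log2 fold change of SCS over control against the GC content of the longest transcript, in HT-29 (left) and NCM460 (right), with the 10 genes in red, every 4th compared locus in grey and the trend over all loci as a line. In NCM460 the 10 genes lie along the falling trend, MCM4 furthest above it; in HT-29, 8 of them lie well below a nearly flat trend.

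The 2 lines were also compared with each other. The difference between the log2 fold changes, HT-29 minus NCM460, was -4.42 for MCM4 (counting interval -5.17 to -3.67), -3.42 for MCM10 (-5.22 to -1.63), -2.99 for MCM6 (-3.98 to -1.99) and -2.88 for CDC45 (-4.47 to -1.28). It was -2.59 for MCM3, -2.26 for MCM5, -2.14 for MCM2 and -0.61 for MCM7 (-0.97 to -0.25). The interval lay below 0 for these 8 genes, beside 15.8% of 10849 loci, and held 0 for CDC6 (-2.05 to 0.25) and CDT1 (-0.35 to 1.01). After subtraction of the GC trends in both lines the same 8 intervals lay below 0, beside 11.5% of loci, with MCM4 at -4.31 and MCM7 at -1.13. With single libraries this difference was not tested against replicates.

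**Figure D3:**
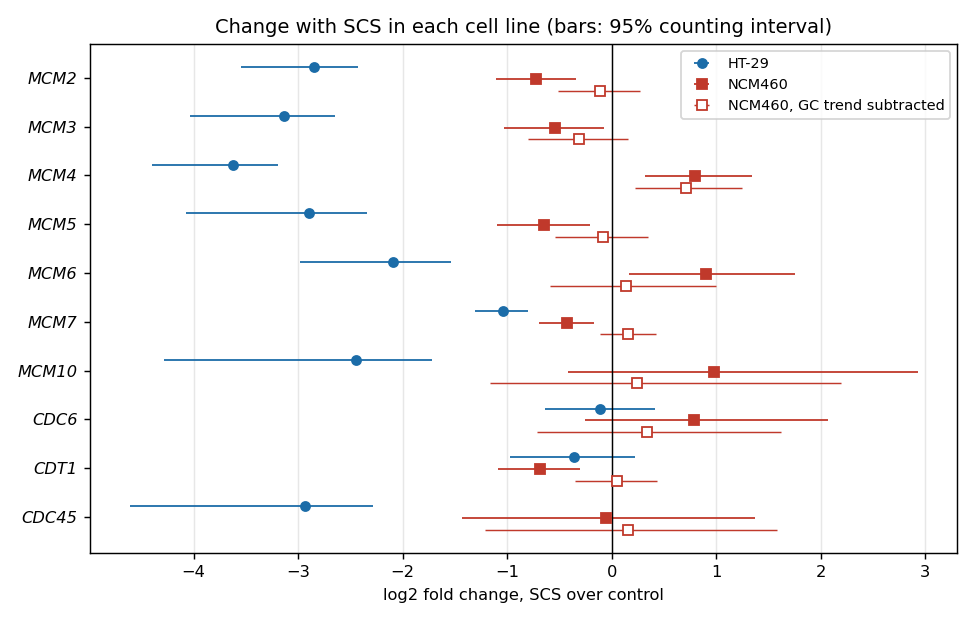
Log2 fold change of SCS over control for each gene in HT-29 (blue circles), in NCM460 (red squares) and in NCM460 after the GC trend was subtracted (open squares), with 95% counting intervals. In HT-29, 8 genes lie left of 0 with their whole interval; in NCM460 the open squares lie between -0.31 and 0.71.

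A change shared by both lines was fitted with edgeR's quasi-likelihood test, taking the line as a block. The libraries allow a test only of terms shared over the other factor, and the error of this model, with 1 residual degree of freedom, is the departure from an equal change in both lines. None of the 10 genes passed an adjusted p of 0.05; the smallest adjusted p by edgeR was 0.459, for MCM2. At an unadjusted p under 0.05 there were 5 of the 10, namely MCM2, MCM3, MCM4, MCM5 and CDC45, beside 5.37% of loci. DESeq2 called 0 of the 6 genes for which it gave an adjusted p, beside 1.64% of loci. Over all loci edgeR called 9 of 12942, which is 0.0695%, with 0.0386% lower and 0.0309% higher. The fitted values were negative for 9 genes, with a median log2 fold change of -1.24 beside 0.07 over all loci. A fitted value is shared by both lines and does not show a fall in each. All 10 values were below 0 in HT-29, but 4 were above 0 in NCM460, and 7 with the GC trend subtracted. Of the 5 genes named above, MCM4 gave 0.80 in NCM460 and CDC45 -0.05, while MCM2, MCM3 and MCM5 gave -0.72, -0.54 and -0.65.

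The same model also compared the lines over both treatments. In this edgeR model, 3 genes were lower in HT-29 than in NCM460, beside 8.21% of loci lower, 8.0% higher and 16.2% either way. CDT1 was lower by a log2 fold change of -2.41 (edgeR adjusted p 0.00103), MCM5 by -2.33 (edgeR adjusted p 0.00345) and MCM2 by -1.69 (edgeR adjusted p 0.0368). MCM2 was lost with DESeq2, whose adjusted p was 0.0747, so that DESeq2 called 2 of the 10 genes, beside 8.28% of loci. Without the filter on low loci the edgeR adjusted p of MCM2 was 0.0575, and 2 genes were called. Without treatment CDT1 was lower in HT-29 by a log2 value of -2.52 (-3.07 to -2.09), and with SCS by -2.18 (-2.78 to -1.75). After GC subtraction the CDT1 values were -1.41 and -1.79. MCM2 gave 0.06 (-0.27 to 0.38) in the untreated lines after that subtraction and -2.60 with SCS, and MCM5 gave -0.58 and -3.31.

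Between the untreated lines, members lay on both sides. MCM4 was higher in HT-29 by a log2 value of 1.27 (0.84 to 1.76), CDC45 by 1.45 (0.54 to 2.73), MCM10 by 1.57 (0.41 to 3.44), CDC6 by 1.14 (0.24 to 2.35) and MCM6 by 0.72 (0.03 to 1.52). MCM5 was lower in HT-29 by a log2 value of -1.19 (-1.62 to -0.79), MCM7 by -0.83 (-1.07 to -0.59) and MCM2 by -0.62 (-0.95 to -0.29), whereas MCM3 gave -0.19 (-0.59 to 0.21). This contrast also went with GC content, with a rho of -0.51 over 12261 loci. After subtraction, MCM4 (1.19, 0.76 to 1.69) and CDC45 (1.69, 0.78 to 2.97) were still higher in untreated HT-29 with intervals above 0, MCM5 (-0.58) and CDT1 were still lower with intervals below 0, and those of the other 6 genes held 0. Under SCS, all genes but CDC6 were lower in HT-29, from -1.43 for CDC45 to -3.44 for MCM5, and there rho with GC was -0.16. The share of all loci that differed between the lines within a treatment was not counted, so these numbers of genes have no background beside them. These comparisons share their libraries with the comparisons of SCS and control.

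The balance of the 6 subunits was then compared, per kilobase of the longest transcript, since the ring needs a single copy of each. MCM7 was the highest subunit in all 4 libraries. In the HT-29 control it stood 4.92-fold (3.96 to 6.12) above MCM5, the lowest, and with SCS 21.1-fold (12.3 to 36.3) above MCM5. In NCM460 the lowest subunit was MCM6, and MCM7 stood 14.4-fold (9.10 to 22.7) above it in the control and 5.58-fold (4.14 to 7.51) with SCS. So the spread between subunits was wider with SCS in HT-29 and narrower with SCS in NCM460. The narrowing did not hold under the GC correction, by which the NCM460 ratio with SCS was 14.1, and with the mean in place of the longest transcript length the HT-29 ratios were 3.92 and 12.0. By the deposited FPKM values the lowest subunit in HT-29 was not MCM5 but MCM6 in the control and MCM3 with SCS, with ratios of 5.59 and 15.1, and MCM7 stood 2.96-fold and 6.47-fold above MCM5.

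MCM7 carried the change in balance in HT-29. It held 28.3% (25.8 to 30.9) of the fragments of the 6 subunits in the control and 63.3% (57.7 to 68.6) with SCS. Against the other 5 subunits, MCM7 was 4.35-fold higher with SCS than in the control (log2 2.12, 1.75 to 2.50). MCM4 had the reverse pattern, with 24.4% (22 to 26.9) in the control and 8.31% (5.50 to 11.9) with SCS. MCM6 held 7.13% and 7.03%, so it fell in step with the sum of the others. MCM2 to MCM6 together went from 885 to 115 fragments, a 9.04-fold fall, whereas the 6 subunits with MCM7 went from 1235 to 313, a 4.63-fold fall. In deposited FPKM the level of MCM7 relative to the mean of the 6 was 1.98 in the HT-29 control and 3.81 with SCS, beside 1.97 and 4.07 from fragments per kilobase.

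In NCM460 the share of MCM7 was 39.6% (35.6 to 43.6) in the control and 36.3% (32.7 to 40.1) with SCS, and these intervals overlap. There MCM4 went from 7.85% (5.82 to 10.3) to 17.1% (14.3 to 20.2) and MCM6 from 3.34% (2.05 to 5.11) to 7.89% (5.96 to 10.2). The order per kilobase in the NCM460 control was MCM7, MCM2, MCM3, MCM5, MCM4 and MCM6. With SCS, MCM4 stood above MCM3 and MCM5. These shares and this order were not corrected for GC content. With the GC trend subtracted, the NCM460 log2 fold changes were 0.71 for MCM4 and 0.14 for MCM6. Those of MCM2, MCM3, MCM5 and MCM7 were then -0.11, -0.31, -0.08 and 0.16. The 6 subunits together went from 599 to 672 fragments, a log2 value of -0.31 (-0.47 to -0.15).

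**Figure D4:**
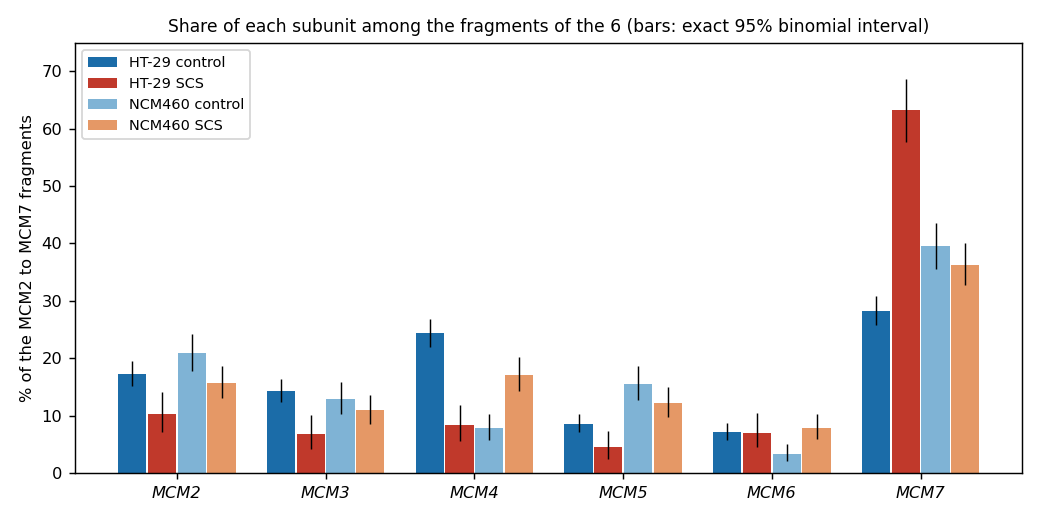
Share of each subunit among the fragments of MCM2 to MCM7 in each library, in percent, with exact 95% binomial intervals; lengths differ between genes, so bars are to be compared within a gene. MCM7 rises from 28.3% to 63.3% with SCS in HT-29, and its bars in NCM460 are 39.6% and 36.3%.

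Genes that start beside a group member on the other strand were compared with it. MCM4 and PRKDC, which encodes the catalytic subunit of DNA-dependent protein kinase, start 2 bases apart, and they moved the same way in both lines. PRKDC had 1082 fragments in the HT-29 control and 430 with SCS (log2 -1.56, -1.73 to -1.40), and 102 and 276 in NCM460 (log2 0.96, 0.63 to 1.30). PRKDC was called lower in HT-29 and higher in NCM460, as MCM4 was, with a smaller fall in HT-29. Over all loci, 14.8% were called lower in HT-29 and 15.4% higher in NCM460. No GC-subtracted value is given for PRKDC, and by the deposited FPKM values MCM4 gave -0.08 in NCM460. Whether the shared start has a part in this was not tested. The other neighbours were not called. TPRA1, whose start lies 44 bases from that of MCM2 and which overlaps it, had 37 and 57 fragments in HT-29 (log2 0.37, -0.23 to 1.03). UFD1, which starts 244 bases from CDC45, had 111 and 136 there (log2 0.06, -0.31 to 0.44). AP4M1, 391 bases from MCM7, gave a log2 fold change of -0.02 (-0.97 to 0.95) in HT-29.

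The rest of the replication programme in HT-29 is given by lists of genes outside the group, chosen with earlier results of these data known. Beside the counts stand the 14.8% of all loci called lower and 16.8% called higher. Of 18 licensing partners, 6 were called lower and none higher, with a median log2 fold change of -0.47. The lower calls came to 9 with the GC trend subtracted, beside 16.1% of loci, and to 9 by FPKM, beside 30.6% of loci. With total nuclear counts they came to 10, and the share of all loci was not counted there. The 6 were ORC1 (-1.84) and ORC6 (-0.95), subunits of the origin recognition complex, GMNN (-1.15), the inhibitor of CDT1, MCM8 (-0.61), and SKP2 and DTL, which direct the destruction of CDT1. SKP2 had 68 and 9 fragments (log2 -2.78, -4.34 to -2.14) and DTL 54 and 9 (log2 -2.46, -4.02 to -1.79). The largest positive values were those of ORC4 (0.39) and KAT7 (0.31), a histone acetyltransferase that acts at origins and whose locus holds a second transcript, and neither was called.

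Of 16 genes of helicase activation, 11 were called lower in HT-29 and none higher, with a median of -1.43. They included GINS1 and GINS3, subunits of the complex that joins CDC45 on the ring. GINS1 had 47 and 9 fragments (log2 -2.27, -3.83 to -1.57). GINS3 had 14 fragments and then 1, a ratio of SCS to control with a counting interval of 0.00144 to 0.4. CLSPN, a fork protein, had 61 and 7 fragments (log2 -2.89, -4.73 to -2.23). CDC7, the kinase that phosphorylates the loaded ring, went from 21 fragments to 0 with SCS, and against a floor of 3 fragments in that library, which leaves out the counting error of the control, it was at least 8.22-fold lower. The counting interval of CDC7 ended at a log2 value of -2.61. DBF4, its activating partner, had 27 and 41 fragments and was not called (log2 0.34, -0.37 to 1.13).

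Of 22 genes of E2F control, 12 were called lower and 3 higher in HT-29, with a median of -0.86. The activator E2F1 had 46 and 7 fragments (log2 -2.51, -4.34 to -1.79), and the repressor E2F8 had 28 and 3, a ratio of SCS to control with a counting interval of 0.0177 to 0.295. CDK2 (-2.10) and CCNE1 (-1.76), the kinase and cyclin of the entry to S phase, fell as well. The 3 that rose were CDKN1A, which encodes the kinase inhibitor p21, with 25 and 279 fragments (log2 3.12, 2.66 to 3.90), the repressor E2F7, with 34 and 80 (log2 0.95, 0.41 to 1.63), and RBL2 (0.65), a pocket protein that represses E2F targets. The call of RBL2 was lost with the GC trend subtracted (0.54). Of 21 replication fork genes, 17 were called lower and 1 higher, with a median of -1.27. PCNA, the sliding clamp, had 216 and 38 fragments (log2 -2.64, -3.28 to -2.24), and the locus shared by the flap nuclease FEN1 and FADS2 had 157 and 26. RFC1, the large subunit of the clamp loader, was the 1 that rose, with 66 and 129 fragments (log2 0.71, 0.30 to 1.19), and its call was lost with the GC trend subtracted (0.55). The locus of PRIM1, which also holds NACA, gave 0.27 and was not called.

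Of 20 mitotic genes, which act after replication, 15 were called lower in HT-29 and none higher, with a median of -1.08. AURKB had 51 and 11 fragments (log2 -2.16, -3.53 to -1.49) and MAD2L1 75 and 22 (log2 -1.86, -2.76 to -1.30), whereas the locus of CENPA, which also holds SLC35F6, gave 0.54 and was not called. Each of these medians was nearer to 0 than the -2.65 of the 10 genes.

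**Figure D5:**
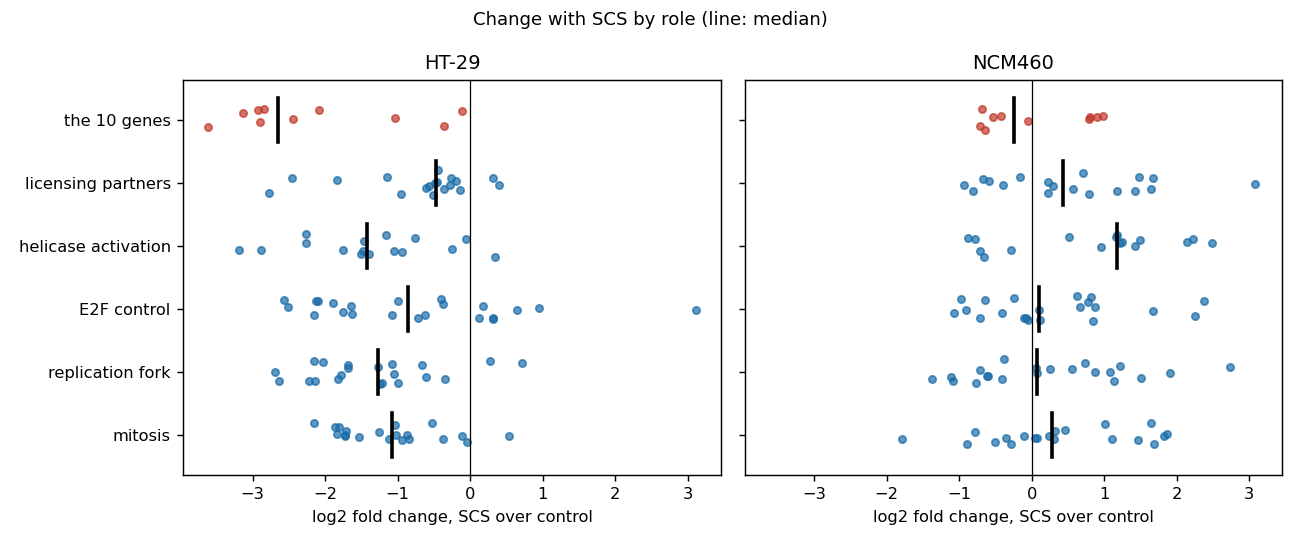
Log2 fold change of SCS over control for the 10 genes (red) and for the genes of 5 lists (blue) in HT-29 (left) and NCM460 (right), 1 point per locus, with the median as a black line. In HT-29 the medians run from -2.65 for the 10 genes to -0.47 for the licensing partners; in NCM460 points lie on both sides of 0 in every row.

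In NCM460 the same lists moved in both directions, beside 13.8% of loci called lower and 15.4% higher. Lower and higher calls numbered 3 and 5 of 18 for the licensing partners, 2 and 3 of 16 for helicase activation, 1 and 4 of 21 for E2F control, 6 and 6 of 21 for the replication fork and 3 and 5 of 20 for mitosis. With the GC trend subtracted they numbered 1 and 1, 1 and 1, 1 and 1, 0 and 0, and 2 and 0, beside 6.25% and 5.72% of loci, and some of these were other genes. The lower call for E2F control was then E2F7 (-1.41) in place of E2F4. Of the genes named next, only ORC2, RBL2 and PLK1 were called in both ways. The helicase activation list had a median of 1.17, which came to 0.52 with genes of 3 fragments or fewer placed at that floor and to 0.32 after the GC subtraction. DTL had 5 and 25 fragments (log2 1.67, 0.44 to 3.59), FZR1, an activator of the anaphase-promoting complex, had 53 and 38 (log2 -0.93, -1.59 to -0.33), and the locus of MCM3AP, with a second transcript, 52 and 45 (log2 -0.67). ORC2 had 1 fragment and then 22, a ratio with a counting interval of 2.56 to 654. TOPBP1, which helps CDC45 onto the ring, had 3 and 23, DBF4 had 1 and 14, RBL2 had 3 and 25, RBL1 had 1 and 13 and the clamp loader subunit RFC3 had 1 and 17. RECQL4 (-0.88) and TIMELESS (-0.78), both fork proteins, were called lower, as was E2F4 (-1.07), while E2F2 (-0.97) was not. POLA2 (-1.37) and RFC2 (-1.12) were called lower and RFC5 (1.5) higher. PLK1, a mitotic kinase, had 142 and 56 fragments (log2 -1.79, -2.29 to -1.36) and -1.22 after GC subtraction, and INCENP gave -0.89. The GC-subtracted values of FZR1, RECQL4, TIMELESS, E2F4 and INCENP were -0.21, -0.14, -0.53, -0.42 and -0.23. MAD2L1 (1.83) and CDK1 (1.86) were called higher, and after GC subtraction they gave 0.70 and 0.59 and were not called.

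The loci whose profile over the 4 libraries lay nearest to the mean profile of the 10 genes were found by the Euclidean distance between log2 CPM values centred on their means, among 7789 loci. They were TCOF1, a nucleolar protein gene, with a distance of 0.12, CDCA5, which encodes the cohesin regulator sororin, with 0.12, ORC1 with 0.27, the locus of SHMT1 and MIR6778 with 0.35, and CHTF18, a subunit of an alternative clamp loader, with 0.36. TCOF1 had 211 fragments in untreated and 60 in treated HT-29, and 81 in untreated and 119 in treated NCM460. CDCA5 had 70, 17, 28 and 36 in the same order. The 10 genes themselves lay at distances from 0.65 for MCM6 to 2.29 for CDC6. The 5 loci are near by their choice.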

How the data were processed

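RNA-seq was analysed from 4 libraries, 1 per condition, so samples were grouped by line and treatment. Total RNA of a RIN above the labels' limit was extracted with TRIzol, made into libraries with an Illumina kit not stated to keep strand, and sequenced as paired ends. The submitters' processing notes list bcl2fastq 2.17.1.14, cutadapt 1.9.1, Bowtie2 and HTSeq 0.6.1 and the build hg19, the methods name Cuffdiff, and the coordinates of the table are those of GRCh38. The authors deposited, for each library, a count column, which is a signal of fragment counts divided by a factor of the library, and an FPKM column, fragments per kilobase scaled by library size. The design had assumed whole counts. Dividing each column by what 1 fragment was worth in it returned whole numbers, within 0.1, for 99.9% to 100% of values, and these were used. The 26 unnamed rows, 0.0403% to 0.0942% of fragments, were left out, and rows with identical values in all columns were merged, which gave 18650 loci.

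Fragments were scaled with edgeR 4.0.16 TMM factors (1.24, 1.50, 0.578 and 0.935), and log2 fold changes of CPM used a prior count of 2, scaled to the mean size of the 4 libraries. Loci averaging at least 1 CPM in a line were compared, and called past 1.5-fold when the exact Clopper-Pearson 95% interval excluded no change. A floor of 3 fragments is 2.17 to 5.91 nuclear CPM, so NCM460 resolves less than HT-29. Intervals and floors cover counting error only. The count test could be fitted only with line and SCS as additive terms, with edgeR's quasi-likelihood test and Benjamini-Hochberg adjustment. It called 9 loci for SCS, and DESeq2 1.42.0 was the alternative. GC content and lengths came from GENCODE 29 (96.1% of loci matched, all 10 genes with the same coordinates), and the GC trend was a lowess curve of span 0.3. FPKM changes used a pseudocount of 0.1, and a fold change on this scale understates the change of low genes. Scripts were tested on simulated data.

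The 10 genes, the lists and the tests were chosen with earlier results of these data known. Genes were named by rule: the 10 genes, the 2 largest falls and rises per list and line among loci averaging 5 CPM or more, starts on the other strand within 1000 bases, the 5 nearest profiles among loci of at least 10 CPM, and markers. ORC1, ORC6, GMNN, MCM8, GINS1, GINS3, CDK2, CCNE1 and RBL2 in HT-29 and E2F7 in NCM460 were added to these once their values had been seen. The alternatives were other scalings, trends, filters, thresholds, lengths, prior counts and thinning.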

Additional observations from a re-analysis of the deposited data

Results flagged for a closer look

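MCM4, MCM6, MCM10 and CDC6 had a lower value with SCS in HT-29 and a higher value with SCS in NCM460, so that the sign of the change differed between the lines. The log2 fold changes, HT-29 minus NCM460, differed by -4.42 for MCM4, -2.99 for MCM6, -3.42 for MCM10 and -0.90 for CDC6. With 1 library per condition these differences were not tested. The counting interval of the difference held 0 for CDC6 (-2.05 to 0.25), and the NCM460 values of MCM10 and CDC6 had intervals that included no change. The HT-29 value of CDC6 (-0.11, -0.64 to 0.41) also had such an interval. By the deposited FPKM values MCM4 gave -0.08 in NCM460, so its sign did not differ between the lines there. With the GC trend subtracted the differences were -4.31 for MCM4, -2.34 for MCM6, -2.79 for MCM10 and -0.49 for CDC6. Which genes differed in sign depended on that subtraction. After it, 7 of the 10 genes were above 0 in NCM460 and all 10 below 0 in HT-29. MCM7 (0.16), CDC45 (0.16) and CDT1 (0.05) then also differed in sign. The NCM460 value of MCM6 was then 0.14 (-0.59 to 1.00), an interval that held 0.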

How the results depend on the processing

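In HT-29 the count of 8 genes called lower was the same under every alternative run. In NCM460 the 3 genes called lower became 0 with total counts, total nuclear counts, the GC trend or the expression trend subtracted, or a 2-fold threshold, and 6 by FPKM. The 2 called higher became 4 with total counts, 1 by FPKM, 1 with the GC trend subtracted and 0 at 2-fold. The NCM460 median was -0.75 by FPKM. In NCM460, MCM5 gave 0.04 and CDT1 0.00 with total counts, CDT1 0.05 with the GC trend subtracted, and MCM4 -0.08 by FPKM, each with the sign turned. Total counts, which let the mitochondrial share set the scale, moved the median of all loci to 0.32 in HT-29 and 0.57 in NCM460. The cause of the other differences was not tested. The ratio of the highest to the lowest subunit was 3.92 and 12.0 in HT-29 without and with SCS by mean transcript length, and 14.1 in NCM460 with SCS after GC subtraction. DESeq2 called 27 loci for SCS where edgeR called 9, and 864 loci for the line where edgeR called 2099. The replication fork median in NCM460 was -0.75 by FPKM. Scaling the prior count to the 2 libraries of a line instead of 4, an alternative added after seeing the data, gave an HT-29 median of -2.72 and kept the number of calls at 8 lower in HT-29 and at 3 lower and 2 higher in NCM460. Of 373 values under alternatives, 4 turned the sign of a gene called in NCM460. Another 15 values of single genes moved beyond their interval, and 17 counts, medians and ratios moved, which are those given above. Genes that were not called turned sign too, and such turns are not among the 4. With total counts MCM3 gave 0.14, MCM7 0.26 and CDC45 0.54 in NCM460, and CDC6 gave 0.15 in HT-29. The NCM460 median turned to 0.40 with total counts and to 0.15 with the GC trend subtracted. Few fragments in NCM460 limit MCM10, CDC6 and CDC45. No paired analysis was possible because the labels give no replicate numbers and each condition has 1 library, so the cell line was the block of the model. Leaving out a library ends the comparison of its own line.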
